A study of Mus musculus with 10 samples.

Results

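The genes described here are 42 genes of the late cell cycle, which act in the G2 phase, in mitosis and in cytokinesis. They were given as a list of symbols, whose rule names no measured value but which was drawn up with earlier results of these data known, and were found among 34650 gene names on the arrays. Each gene was read from 1 probe, the one with the highest mean signal. Of the 42, 37 were bright enough to be tested, among 13091 genes tested in all.

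Total RNA of C2C12 cells was hybridised to 1-colour Agilent expression arrays. C2C12 is a mouse myoblast line that divides in rich medium and can fuse into myotubes. The cells received by lipid transfection either a miR-27a-3p mimic, a synthetic RNA that supplies the mature microRNA, or a scrambled sequence as control. Both were given at 150 nM in medium with high glucose and fetal bovine serum, and the cells were collected after 72 h. About 60% of the cells were estimated to have taken up the RNA, so every sample mixed transfected and untransfected cells, and no untreated cells were analysed here. The labels give 6 mimic and 4 scrambled samples as independent transfections. The file headers show 5 array positions on 1 slide, each scanned 2 times with 1 file per scan. The files of a position were averaged and counted once, which left 3 mimic arrays and 2 scrambled arrays. Mimic arrays 1, 2 and 3 hold replicates 1 and 4, 2 and 5, and 3 and 6. Scrambled arrays 1 and 2 hold replicates 1 and 3, and 2 and 4.

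Between 27% and 35.3% of the non-control spots of a file were well above background, and no such spot was saturated. The scrambled arrays lay further apart than any pair of mimic arrays, with an SD of log2 differences across genes of 0.57 against 0.32 to 0.44. A level below is the log2 signal minus the 75th percentile of that array's detected probes, so a negative level lies under that percentile. Levels of different genes come from different probes and are not set against each other. A difference is the mimic mean minus the scrambled mean on this log2 scale, given with its standard error from limma. A gene is said to have risen where limma's Benjamini-Hochberg adjusted p over all 13091 genes was under 0.05. All p-values reflect only how far these 5 arrays vary, and that variation may be technical.

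Entry into mitosis depends on the kinase CDK1 bound to a cyclin, which WEE1 and MYT1 hold back and CDC25 phosphatases release. Aurora and Polo kinases then build the spindle, the checkpoint waits until each kinetochore has bound microtubules, and the anaphase-promoting complex starts chromatid separation. The central spindle and the contractile ring finally divide the cell. Most of these genes are transcribed in G2 and mitosis, under MuvB complexes, B-Myb, FOXM1 and NF-Y, and they fall silent when myoblasts leave the cell cycle to differentiate.

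The microRNA that was supplied is shown first, with its seed (bases 2 to 8) in capitals, since the seed is the stretch that pairs with target transcripts. Sequences are those of RefSeq with positions on GRCm38.p6, and miR-27b-3p is added because it carries the same seed from another locus.
mmu-miR-27a-3p, chr8:84208727-84208747, strand +: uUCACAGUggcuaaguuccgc
mmu-miR-27b-3p, chr13:63300760-63300780, strand +: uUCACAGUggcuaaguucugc
Matches to the seed in the transcripts of the mitotic genes were not analysed here.

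Promoters of 33 of the 42 genes were matched in RefSeq, as windows from 250 bases before to 50 bases after the annotated start. Each was searched on both strands for the cell cycle homology region (TTTGAA or TTCGAA), the element that MuvB complexes bind, and for the CCAAT box (CCAAT), which NF-Y binds. At least 1 cell cycle homology region was found in 25 of the 33 genes (75.8%), against 21.7% of all 27025 genes with a promoter and 16.3% of the tested genes with one. A CCAAT box was found in 24 (72.7%), against 41.1% of all genes, and both motifs in 22 (66.7%), against 8.61%. Of 67 other mitosis genes with a promoter, listed below, 55.2% held the cell cycle homology region, 62.7% a CCAAT box and 38.8% both. Of 40 DNA replication genes the shares were 25%, 62.5% and 17.5%. These shares describe the letters in the windows and show no binding.

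The matches of the mitotic genes lay close to the start site. Of 37 matches to the cell cycle homology region in 35 windows, 26 (70.3%) began within 50 bases of the start, against 25.2% of the matches in all windows. In 18 of 33 windows, 1 per gene (54.5%), a CCAAT box ended at most 50 bases before a cell cycle homology region, against 1.87% of all 32851 windows. The gap between both motifs had a median of 20.5 bases in those 18 windows. Among the 13 genes that passed the test and had a promoter entry, Kif2c included, 10 held the cell cycle homology region (76.9%), close to the share of all 33. Birc5, Mad2l1, Mybl2, Nuf2, Nusap1 and Pttg1 held neither motif in this window.

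The following 5 windows show the range of these arrangements on GRCm38.p6, written 5′ to 3′ on the strand of the gene, with the matches in capitals. Prc1 and Aurka rose and have CCAAT boxes before 1 cell cycle homology region. Cdca8 rose and has 4 CCAAT boxes, the last of which shares letters with the cell cycle homology region. Kif2c was higher after the mimic and has its match 103 bases before the start, with no CCAAT box. Cdc25b has both motifs and was the only tested gene of the 42 with a negative difference.
Prc1, chr7:80294201-80294500, strand +: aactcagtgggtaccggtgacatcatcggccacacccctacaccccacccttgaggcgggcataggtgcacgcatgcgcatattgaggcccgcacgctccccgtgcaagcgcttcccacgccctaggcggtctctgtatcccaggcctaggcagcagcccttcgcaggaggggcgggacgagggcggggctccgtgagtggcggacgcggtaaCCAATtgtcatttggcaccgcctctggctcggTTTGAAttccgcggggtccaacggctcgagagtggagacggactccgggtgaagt
Aurka, chr2:172370521-172370820, strand -: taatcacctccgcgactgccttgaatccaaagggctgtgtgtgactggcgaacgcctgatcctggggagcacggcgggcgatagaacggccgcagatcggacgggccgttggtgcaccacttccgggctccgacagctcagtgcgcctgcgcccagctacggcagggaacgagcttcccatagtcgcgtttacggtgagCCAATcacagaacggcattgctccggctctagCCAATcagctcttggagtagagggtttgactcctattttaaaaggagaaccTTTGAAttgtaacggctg
Cdca8, chr4:124936868-124937167, strand -: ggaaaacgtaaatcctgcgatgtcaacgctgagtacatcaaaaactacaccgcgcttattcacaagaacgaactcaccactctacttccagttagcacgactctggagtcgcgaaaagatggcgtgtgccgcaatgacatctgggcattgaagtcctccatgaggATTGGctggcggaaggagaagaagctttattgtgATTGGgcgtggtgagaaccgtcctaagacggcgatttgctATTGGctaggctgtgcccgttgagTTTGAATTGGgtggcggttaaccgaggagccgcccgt
Kif2c, chr4:117178723-117179022, strand -: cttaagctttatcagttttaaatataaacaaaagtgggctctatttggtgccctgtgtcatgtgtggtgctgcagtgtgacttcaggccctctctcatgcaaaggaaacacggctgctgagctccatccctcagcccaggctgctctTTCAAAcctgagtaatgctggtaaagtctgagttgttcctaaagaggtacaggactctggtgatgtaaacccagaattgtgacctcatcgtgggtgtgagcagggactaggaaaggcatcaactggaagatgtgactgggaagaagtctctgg
Cdc25b, chr2:131186698-131186997, strand +: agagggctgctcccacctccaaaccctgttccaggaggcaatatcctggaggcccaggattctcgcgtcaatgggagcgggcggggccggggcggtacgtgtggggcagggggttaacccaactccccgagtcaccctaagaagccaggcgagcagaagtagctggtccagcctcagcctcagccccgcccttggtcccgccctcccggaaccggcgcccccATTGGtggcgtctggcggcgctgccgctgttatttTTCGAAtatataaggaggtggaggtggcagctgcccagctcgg

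**Figure D1:**
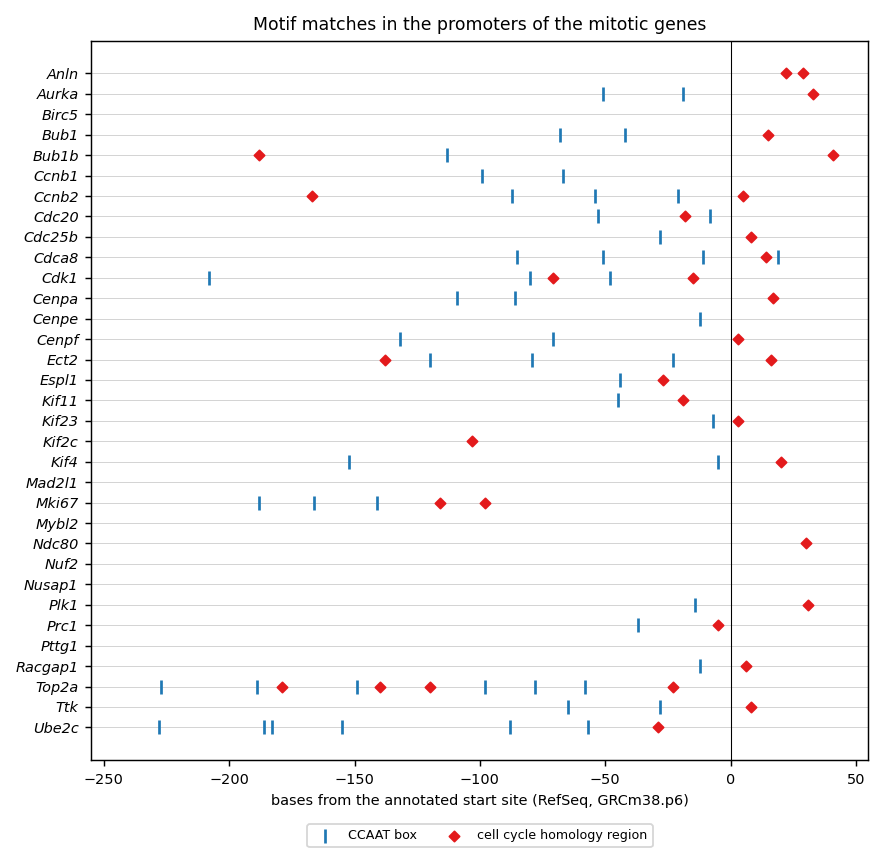
Positions of the motif matches in the RefSeq promoters of 33 mitotic genes, in bases from the annotated start site (GRCm38.p6), with 1 window per gene. Red diamonds are cell cycle homology regions and blue bars CCAAT boxes. Most red diamonds sit near the start with a blue bar to their left, and 6 genes have neither.

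After the mimic, 17 of the 37 tested mitotic genes passed the test with a higher level (45.9%), 0 fell and 20 did not pass. The 17 include Kif2c, which met the filter for testing (at least 4 files well above background) only through the mimic files. Of all genes tested, 5.12% were called in either direction, 2.76% higher and 2.36% lower. The difference was above 0 for 36 of the 37, against 45.3% of all genes. Its median was 0.77 (quartiles 0.66 and 1.07), against -0.05 over all genes, and it ran from -0.30 for Cdc25b to 1.35 for Mad2l1. Of the 37, 11 had a difference of 1 or more, which is 2-fold, and 8 of these passed the test. Both of these counts also include Kif2c, which was above background in 0 of 4 scrambled files. Of the 33 genes well above background in all files, 16 passed the test, 10 had a difference of 1 or more and 7 had both. Among the 20 that did not pass, 9 had an adjusted p between 0.05 and 0.1, and under limma 30 of the 37 had an unadjusted p under 0.05, all with a higher mimic level, against 11.2% of all genes.

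The mimic arrays stood above the scrambled arrays for nearly every gene. All 3 mimic arrays lay above both scrambled arrays for 34 of the 37 genes, against 19.8% of all genes, and the exceptions were Cdc25b, Anln and Espl1. Relative to the scrambled mean of each gene, the median gene stood at 0.83, 0.80 and 0.82 on mimic arrays 1, 2 and 3, and at -0.04 and 0.04 on scrambled arrays 1 and 2. The scrambled arrays did not differ in 1 direction: 20 genes were higher on scrambled array 2 and 17 on scrambled array 1, with a median distance of 0.38 and the widest, 1.02, for Kif11. In whole-culture RNA, more dividing cells and more of these transcripts per cell cannot be told apart.

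**Figure D2:**
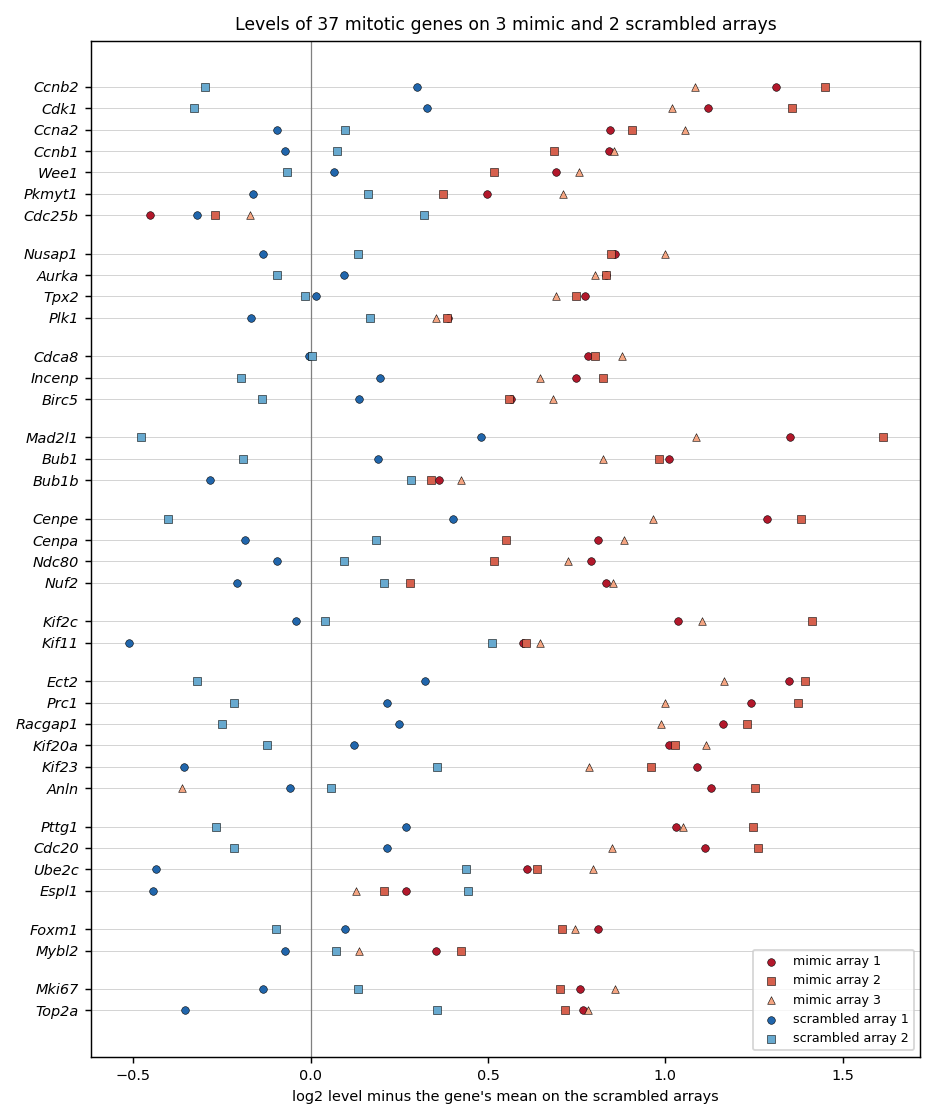
Level of each of the 37 tested genes on each array, relative to the mean of the 2 scrambled arrays (log2), with 1 row per gene and 1 point per array. The mimic points lie to the right of both scrambled points in 34 rows. In the rows of Cdc25b, Anln and Espl1 the points of both groups overlap.

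The calls of single genes depended on single arrays. Without mimic array 1, 2 or 3, limma called 0 of the 37 genes each time, with smallest adjusted p-values of 0.096, 0.084 and 0.061. At an unadjusted p under 0.05 these fits gave 27, 29 and 28 genes, all higher, against 6.61%, 7.77% and 8.45% of all genes called higher at that threshold, and 36 differences were above 0. Over all genes such fits called 47, 79 and 139. Without scrambled array 1, 24 were called, 23 higher and Cdc25b lower, when 14.4% of all genes were called higher. Without scrambled array 2, 12 were called, all higher, against 2.60% of all genes. In both of these fits the scrambled group is 1 array, assumed to vary like the mimic arrays, which alone give the spread. With the 10 files as separate arrays, 32 were called higher, against 15.1% of all genes. The median difference of the mitotic genes tested stayed between 0.66 and 0.93 in all 18 alternatives tried.

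**Figure D3:**
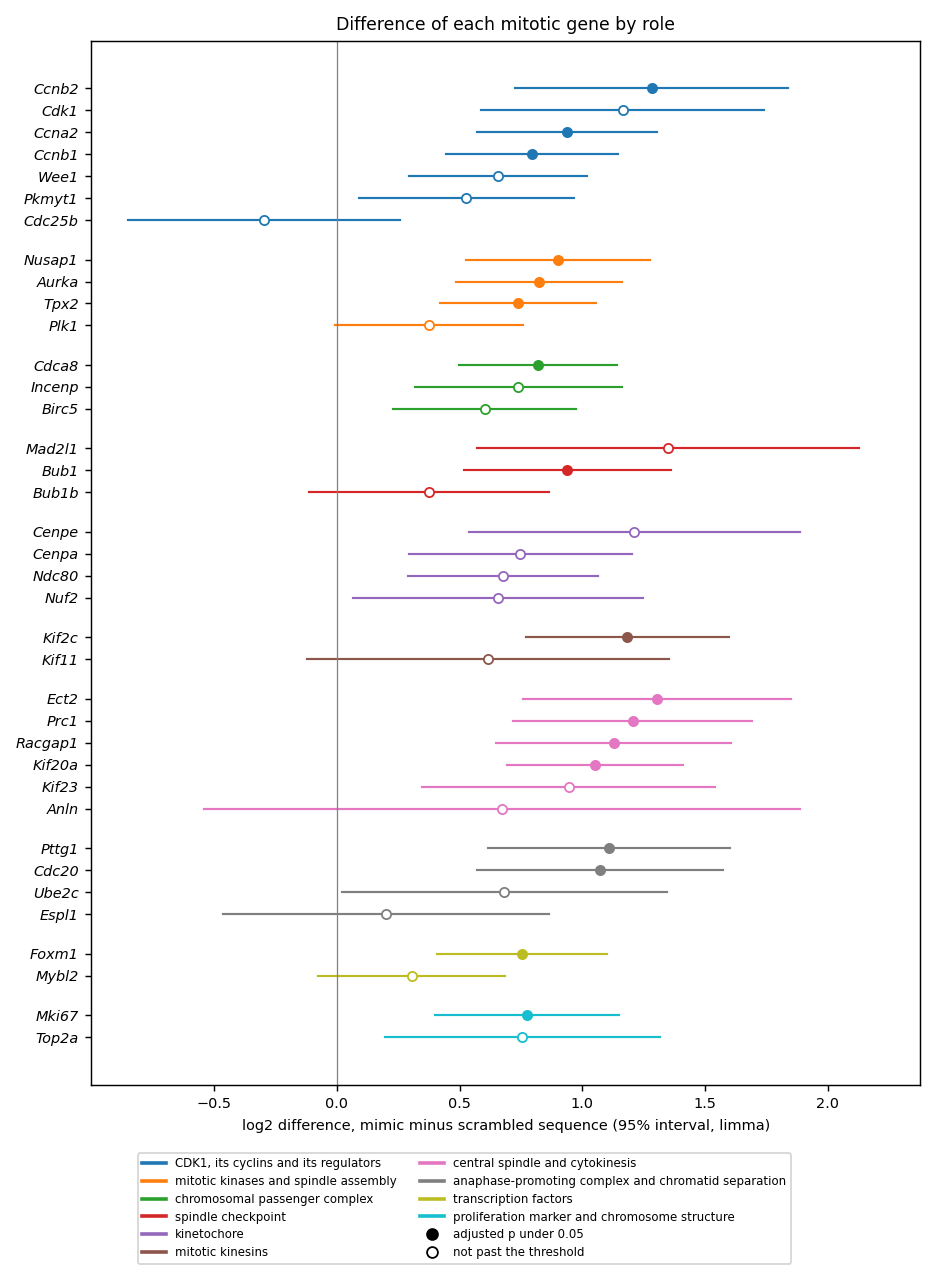
Difference between mimic and scrambled sequence (log2) for each of the 37 tested genes, by role, with limma's 95% interval from 3 mimic and 2 scrambled arrays. Filled points passed the adjusted p threshold of 0.05, all 17 of them on the positive side, and only Cdc25b lies below 0. The 17 include Kif2c, which was above background in no scrambled file.

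Among CDK1, its cyclins and its regulators, 3 of 7 tested genes rose and 0 fell (median difference 0.79). Ccnb2, the B-type cyclin that partners CDK1 (probe at mm9 chr9:70255671-70255730), had levels of 1.27, 1.41 and 1.04 with the mimic and 0.26 and -0.34 on the scrambled arrays. Both scrambled arrays lay under the lowest mimic array, at a distance from each other. The difference was 1.28 ± 0.23 (SE, n = 3 and 2), or 2.43-fold (95% interval 1.65 to 3.57, limma adjusted p = 0.038). Ccna2, a cyclin that acts from S phase into G2 (chr3:36463978-36464037), was at -0.44, -0.38 and -0.23 after the mimic and at -1.38 and -1.19 after the scrambled sequence. The arrays of each group lay close together, and the gene rose by 0.94 ± 0.15, or 1.91-fold (adjusted p = 0.028). Ccnb1, the other major mitotic B cyclin (chr13:101548722-101548781), was at -0.49, -0.65 and -0.48 against -1.41 and -1.26. It rose by 0.79 ± 0.14 (adjusted p = 0.039).

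Cdk1, the kinase itself, had a fold within the range of its cyclins, under that of Ccnb2, but missed the threshold. Its levels were -0.78, -0.55 and -0.89 with the mimic and -1.58 and -2.23 on the scrambled arrays. The groups did not overlap, and the difference was 1.17 ± 0.23 (95% interval 0.59 to 1.74, adjusted p = 0.051). The inhibitory kinases Wee1 and Pkmyt1 were at 0.65 ± 0.15 and 0.53 ± 0.18 (adjusted p = 0.065 and 0.145), with the mimic arrays above the scrambled arrays for both.

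Cdc25b, the phosphatase that activates CDK1 at the onset of mitosis, did not follow its neighbours in the pathway. Its levels were 0.17, 0.35 and 0.45 after the mimic and 0.30 and 0.94 after the scrambled sequence, so the groups overlapped. The difference was -0.30 ± 0.23 (95% interval -0.85 to 0.26, adjusted p = 0.434). It rested on scrambled array 2: without it the difference was 0.02, and without scrambled array 1 it was -0.62 (adjusted p = 0.046, with the spread taken from the mimic arrays alone). Cdc25c, a related phosphatase, was too dim for the main test. It was well above background in 3 of 6 mimic files and in 0 of 4 scrambled files. Its levels were -4.32, -5.17 and -4.48 with the mimic and -5.50 and -4.95 with the scrambled sequence, so the groups overlapped. With every probe tested its difference was 0.57 ± 0.35 (95% interval -0.27 to 1.42, limma adjusted p = 0.780).

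Of the 4 genes of mitotic kinases and spindle assembly, 3 rose (median difference 0.78). Aurka, the kinase that matures centrosomes (chr2:172181726-172181785), was at -0.27, -0.27 and -0.30 with the mimic and at -1.01 and -1.20 on the scrambled arrays. The mimic arrays were almost level, and the gene rose by 0.82 ± 0.14, or 1.77-fold (adjusted p = 0.033). Tpx2, which activates that kinase on the spindle (chr2:152719476-152719535), was at -1.46, -1.49 and -1.55 against -2.22 and -2.25. It rose by 0.74 ± 0.13 (adjusted p = 0.038), with little spread in either group. Nusap1, which bundles spindle microtubules near chromosomes (chr2:119475072-119475131), was at -1.92, -1.93 and -1.77 against -2.91 and -2.64. It rose by 0.90 ± 0.15 (adjusted p = 0.035). Plk1, the Polo kinase that drives several steps of mitosis, was at 0.15, 0.15 and 0.12 against -0.41 and -0.07. Its difference was among the smaller ones, at 0.37 ± 0.16 (95% interval -0.01 to 0.76, adjusted p = 0.204), and 0.21 when scrambled array 1 was left out.

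In the chromosomal passenger complex, which corrects faulty attachments and later moves to the midzone, 1 of 3 tested genes rose. Cdca8, the borealin subunit (chr4:124595809-124595868), was at 0.54, 0.56 and 0.64 with the mimic and at -0.25 and -0.24 on the scrambled arrays. Both groups were tight, and the difference was 0.82 ± 0.13, or 1.77-fold (adjusted p = 0.028). The scaffold Incenp was at 0.74 ± 0.17 (adjusted p = 0.069) and the survivin gene Birc5 at 0.60 ± 0.15 (adjusted p = 0.084), and the groups did not overlap for either. The kinase of the complex, Aurkb, was well above background in 2 of 6 mimic files and 0 of 4 scrambled files and was not tested. Its signal stood out on mimic array 2, at -2.32, beside -7.20 and -6.53 on the other mimic arrays, and the scrambled arrays were at -6.78 and -6.30.

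The spindle checkpoint gave 1 call among 3 tested genes. Bub1, a checkpoint kinase of the kinetochore (chr2:127626988-127627047), was at -1.99, -2.02 and -2.18 against -2.81 and -3.19. The groups were clearly apart, and it rose by 0.94 ± 0.17 (adjusted p = 0.040). Mad2l1, which holds CDC20 inactive while kinetochores are unattached, had the largest fitted difference of the 37, at 1.35 ± 0.32, and did not pass (adjusted p = 0.071). Its levels were -0.11, 0.16 and -0.37 with the mimic and -0.98 and -1.94 on the scrambled arrays, so the scrambled arrays were 0.96 apart. Leaving out scrambled array 2 gave a difference of 0.87, and leaving out scrambled array 1 gave 1.83. A second measured probe of Mad2l1, above background in 3 files of each group, gave -0.33 ± 0.21, the opposite sign. Bub1b, the BubR1 kinase, was at 0.37 ± 0.20 (95% interval -0.11 to 0.86, adjusted p = 0.286), and at 0.09 or 0.66 when scrambled array 1 or 2 was left out. The checkpoint kinase gene Ttk was above background in no file.

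None of the 4 tested kinetochore genes passed limma's adjusted threshold. All 4 were higher at limma's unadjusted p under 0.05, against 11.2% of all genes. For all 4 the mimic arrays lay above both scrambled arrays, against 19.8% of all genes. Cenpe, the kinesin that carries chromosomes to the spindle equator, was at 0.28, 0.37 and -0.04 after the mimic and at -0.61 and -1.41 after the scrambled sequence. Scrambled array 2 lay furthest down, and the difference was 1.21 ± 0.27 (95% interval 0.54 to 1.89, adjusted p = 0.065). Cenpa, the histone that marks centromeres, and Ndc80, the microtubule anchor, were at 0.75 ± 0.19 and 0.68 ± 0.16 (adjusted p = 0.081 and 0.069). Nuf2, which pairs with NDC80, was at 0.66 ± 0.24 (adjusted p = 0.167). Cenpf, a large kinetochore protein, was detected in 1 of 6 mimic files and 0 of 4 scrambled files, so no test was made.

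Both tested mitotic kinesins were dim. Kif2c, which depolymerises microtubules at centromeres (chr4:116832728-116832787), was at -4.54, -4.17 and -4.48 with the mimic and at -5.62 and -5.54 on the scrambled arrays. It was well above background in 4 of 6 mimic files and in 0 of 4 scrambled files. Kif2c thus met the filter for testing, at least 4 files, only through the mimic files. Its limma adjusted p of 0.020 is therefore not taken as support for a rise. Set against a floor for the scrambled arrays, the signal was 1.45-fold higher after the mimic. That figure sets the mean of the mimic arrays against, on each scrambled array, the higher of the probe's own signal and the lowest signal well above background. It is not a strict lower limit, since a probe can lie above that lowest signal and still not be well above background. With normexp background correction the fitted difference of Kif2c dropped to 0.60 and no longer passed (adjusted p = 0.190). Kif11, the motor that pushes spindle poles apart, exceeded background in 5 of 6 mimic files but 1 of 4 scrambled ones. It was at -4.42, -4.42 and -4.37 against -5.53 and -4.51, a difference of 0.62 ± 0.30 (adjusted p = 0.256) that became 0.10 when scrambled array 1 was left out and 1.13 when scrambled array 2 was. The chromosome motor Kif4 was above background in 1 of 6 mimic files and was not tested.

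Central spindle and cytokinesis genes had the highest median difference of the 10 roles, 1.09, and 4 of 6 rose, each by 2-fold or more. Ect2, which sets off furrow formation at the division plane (chr3:26996278-26996337), was at -1.59, -1.54 and -1.77 with the mimic and at -2.61 and -3.26 on the scrambled arrays. The lowest mimic array lay well above the highest scrambled array, and the rise was 1.30 ± 0.22, or 2.47-fold (95% interval 1.69 to 3.60, adjusted p = 0.035). Prc1, which bundles the antiparallel microtubules of the midzone (chr7:87461048-87461107), was at 0.76, 0.89 and 0.52 against -0.27 and -0.70. It rose by 1.21 ± 0.20, or 2.31-fold (adjusted p = 0.031), with its promoter shown above.

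Racgap1 and Kif23 encode the subunits of centralspindlin, the complex that recruits ECT2. Racgap1 (chr15:99451768-99451827) was at 0.39, 0.46 and 0.22 after the mimic and at -0.52 and -1.02 after the scrambled sequence, and rose by 1.13 ± 0.20 (adjusted p = 0.036). Kif23 was at -3.42, -3.55 and -3.72 against -4.86 and -4.15, with 3 of 4 scrambled files above background. Its difference of 0.94 ± 0.24 missed the threshold (adjusted p = 0.088), though the groups did not overlap, and it was 0.59 when scrambled array 1 was left out. Kif20a, the kinesin that brings the passenger complex to the midzone, was at -0.71, -0.69 and -0.61 against -1.60 and -1.85. With both groups tight, it had the smallest adjusted p of the 37 tested genes, 0.019, for a rise of 1.05 ± 0.15, or 2.07-fold.

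Anln, an actin-binding scaffold of the contractile ring, split the mimic arrays. It was at 0.58 and 0.70 on mimic arrays 1 and 2 but at -0.91 on mimic array 3, under both scrambled arrays at -0.61 and -0.49. The difference was 0.67 ± 0.49 (adjusted p = 0.421), and 1.19 without mimic array 3 (adjusted p = 0.061). No other tested member had a mimic SD as wide as its 0.90.

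The anaphase-promoting complex and chromatid separation gave 2 rises among 4 genes. Pttg1, securin, the inhibitor that the complex destroys (chr11:43233801-43233860), was at 1.79, 2.01 and 1.82 with the mimic and at 1.03 and 0.50 on the scrambled arrays. The groups stood apart, with a rise of 1.11 ± 0.20, or 2.16-fold (adjusted p = 0.040). Cdc20, the activator of the complex (chr4:118105534-118105593), was at 1.49, 1.64 and 1.23 against 0.59 and 0.16. It rose by 1.07 ± 0.20, or 2.10-fold (adjusted p = 0.044).

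The enzymes beside them did not pass the test. Ube2c, the ubiquitin-conjugating enzyme of the complex, was at -0.47, -0.45 and -0.29 against -1.52 and -0.65, a difference of 0.68 ± 0.27 (adjusted p = 0.189) with the scrambled arrays far apart. Leaving out scrambled array 1 or 2 moved it to 0.24 or 1.12. Espl1, separase, which cuts cohesin once securin is gone, exceeded background in 3 of 6 mimic files and 1 of 4 scrambled ones. Its difference was 0.20 ± 0.27 (95% interval -0.46 to 0.87, adjusted p = 0.658), which turned to -0.24 when scrambled array 1 was left out and to 0.65 when scrambled array 2 was.

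Foxm1, the transcription factor that activates many of the genes above (chr6:128324783-128324842), was at -2.91, -3.01 and -2.97 with the mimic and at -3.62 and -3.82 on the scrambled arrays. It rose by 0.75 ± 0.14, or 1.69-fold (adjusted p = 0.042). Mybl2, which encodes B-Myb, was at -2.17, -2.10 and -2.39 against -2.59 and -2.45, and its difference of 0.30 ± 0.16 did not pass (adjusted p = 0.271). A second Mybl2 probe, detected in 6 of 6 mimic files and 1 of 4 scrambled ones, gave 1.34 ± 0.17, so the reading of this gene depended on the probe.

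Mki67, the Ki-67 antigen that coats mitotic chromosomes and marks dividing cells (chr7:142881591-142881650), was at -0.32, -0.38 and -0.22 against -1.21 and -0.94. It rose by 0.77 ± 0.15, or 1.71-fold (adjusted p = 0.048). Top2a, which untangles sister chromatids, was at -1.89, -1.94 and -1.87 against -3.01 and -2.30. The groups did not overlap, but the scrambled arrays were 0.71 apart, and the difference of 0.76 ± 0.23 did not pass (adjusted p = 0.118). It was 0.40 when scrambled array 1 was left out and 1.11 when scrambled array 2 was.

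Repeat measurements of the same genes mostly had the same sign. Of 65 probes for the 42 genes, 48 were measured, and 10 genes had 11 further measured probes beside the chosen one. Of the 11, 10 had the sign of the chosen probe, and the exception was that of Mad2l1. Ccnb1, Cdca8, Incenp and Racgap1 gave 0.84 ± 0.14, 0.75 ± 0.22, 0.83 ± 0.14 and 1.04 ± 0.19 with their second probe, each close to the chosen one. In the first and the second scan taken alone, all 37 genes had the same sign in both, and the median difference was 0.78 in each. Both scans read the same 5 arrays, so their agreement does not repeat the comparison. The differences of a gene in the 2 scans were a median of 0.080 apart, and the widest gap, 0.27, was that of Aurka.

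**Figure D4:**
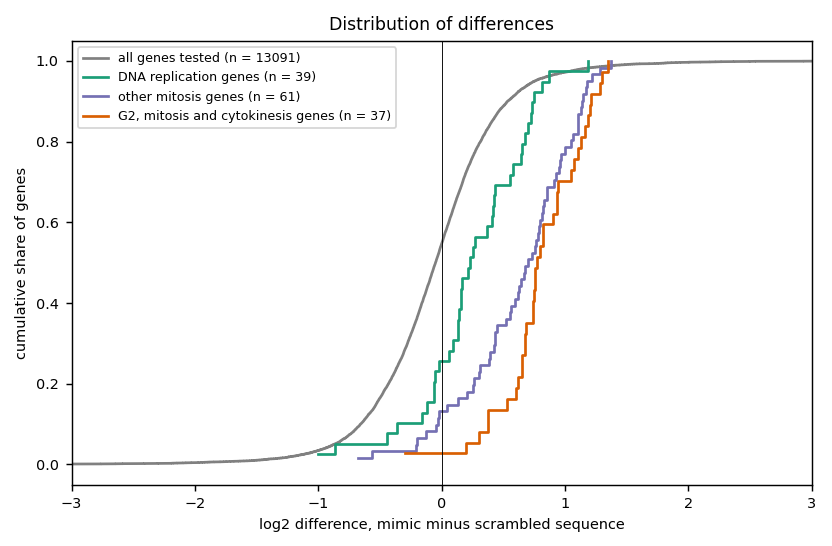
Cumulative share of genes (vertical axis) by difference between mimic and scrambled sequence (log2, horizontal axis, shown from -3 to 3) for the 37 tested mitotic genes, the other mitosis genes, the DNA replication genes and all 13091 genes tested. The mitotic genes centre on a median of 0.77, the other mitosis genes on 0.70, the DNA replication genes on 0.23 and all genes on -0.05.

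Further mitosis genes showed a like shift, and genes of DNA replication a smaller one. Of 83 other mitosis genes (cyclin-dependent kinase subunits, condensins, kinetochore and spindle proteins), 61 were tested, 14 rose, 0 fell and 53 had a positive difference, against 2.76% of all genes called higher, 2.36% lower and 45.3% positive. At an unadjusted p under 0.05 limma gave 36 higher and 0 lower, against 11.2% and 14.1% of all genes, and the median difference was 0.70. Among the 14, Depdc1a and Depdc1b were above background in 6 of 6 mimic files but 1 of 4 scrambled files. These genes thus met the filter for testing through the mimic files. The same holds for Ckap2, Mastl, Cenph, Cenpn and Ska1, each above background in 1 of 4 scrambled files. They were not called but count among the 53 positive differences, and some among the 36, so the filter itself bears on those counts. The largest rises were those of Cenpk, a kinetochore subunit (1.28 ± 0.20, adjusted p = 0.026), Arhgef39 (1.22 ± 0.19, 0.027), and Spc25, a partner of NDC80 and NUF2 (1.18 ± 0.21, 0.038). Cks2, a small CDK-binding protein, Kif20b, a kinesin of cytokinesis, and Aspm, a spindle pole protein, rose by 1.15 ± 0.16, 1.11 ± 0.17 and 1.11 ± 0.13 (adjusted p = 0.020, 0.026 and 0.012).

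Of 49 DNA replication genes, 39 were tested, 4 rose and 0 fell, against the 2.76% and 2.36% of all genes, with a median of 0.23. At limma's unadjusted p under 0.05, 11 were higher and 2 lower, against 11.2% and 14.1% of all genes. The 4 that rose were the DNA polymerase subunit genes Pola1 (1.19 ± 0.14, adjusted p = 0.012), Pole (0.82 ± 0.16, 0.044) and Pold1 (0.72 ± 0.13, 0.040), and the thymidine kinase gene Tk1 (0.73 ± 0.14, 0.045). Whether the medians of these lists differ was not tested. Among 28 genes that control mitotic transcription or cell cycle exit, 21 were tested, 1 rose and 0 fell, a share near the 2.76% and 2.36% of all genes. By limma's unadjusted p under 0.05, 2 were higher and 5 lower, against 11.2% and 14.1% of all genes. The called gene was Ccnd1, the cyclin of G1, at 1.14 ± 0.18 (adjusted p = 0.028), and the list's median was -0.02.

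Most markers of muscle differentiation moved with the mitotic genes, in the other direction. Of 20 markers of differentiating muscle cells, 19 were tested, 14 fell and 0 rose, against 2.36% of all genes called lower, and the median difference was -1.55. At an unadjusted p under 0.05, 15 were lower and 0 higher under limma, against 14.1% and 11.2% of all genes. Their summed signal, as log2, was 4.64 to 4.85 with the mimic and 5.92 to 5.95 on the scrambled arrays. The difference was positive for 2 of the 19, Myl1 (0.18 ± 0.38) and Myl4 (0.31 ± 0.15). Both were above background in all files and neither was called. Mymk and Mymx, which make myoblasts fuse, fell by 2.44 ± 0.29 and 1.56 ± 0.16 (adjusted p = 0.013 and 0.0095), and Myog, the myogenin gene, by 2.10 ± 0.21 (adjusted p = 0.0092). The part of these genes in the rise of the mitotic genes was not tested.

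The other marker lists moved less, and many of their genes were not detected. Of the 8 markers of myoblasts, the labelled cell type, 6 were above background in all files, Myod1 among them. Limma called 0 of these 6, with 4 lower at an unadjusted p under 0.05, against 14.1% of all genes. The difference was positive for 2 of the 6, Ncam1 (0.57 ± 0.25) and Vcam1 (0.24 ± 0.20). The summed log2 signal of the list was 4.21 to 4.32 on the mimic arrays and 4.47 to 4.86 on the scrambled ones. Pax7 was above background in no file. Of 3 tested macrophage markers and 1 tested adipocyte marker, limma called 0. With an unadjusted p under 0.05, 1 macrophage marker was higher and the adipocyte marker Pparg lower, against 11.2% and 14.1% of all genes. The macrophage markers Ptprc and Adgre1 and the adipocyte markers Adipoq, Fabp4, Plin1, Cidec and Lep were above background in no file. The macrophage markers Cd68 and Cd14 and the adipocyte marker Pparg were above background in all files. Csf1r, also a macrophage marker, was above it in 5 of 6 mimic and 4 of 4 scrambled files. Of 8 fibroblast and smooth muscle markers, 6 were tested, Tagln and Pdgfra fell and 0 rose, against 2.36% of all genes called lower. Limma gave 3 lower and 1 higher at an unadjusted p under 0.05, against 14.1% and 11.2% of all genes. The difference was positive for 3 of the 6, Dcn (0.48 ± 0.19), Lum (0.19 ± 0.40) and Col3a1 (0.16 ± 0.14). Pdgfra was dim, with detection in 3 scrambled files but only 1 mimic file. Cnn1 and Myh11 were above background in no file.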

How the data were processed

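Per the file headers, the deposited files give the linear intensity of every spot, background-subtracted and detrended by Agilent Feature Extraction. Its version is 12.0.0.7 in the headers, which place probes on mm9, and 10.7.3.1 in the submitters' processing notes. A deposited value table, in linear intensity and quantile-normalised by its values, with dim probes left empty by an unknown rule, served as an alternative. Control spots and outlier spots (157 to 270 per file) were left out, and signals were taken as log2 minus the 75th percentile of each file, taken over 13029 probes detected in every file. Probes well above background in at least 4 files were tested (16786 of 55681), and 61 genes without a value on an array were left out. The files of a position shared 21 to 75 non-uniform spots, and other pairs 0. limma 3.58.1 in R 4.3.3 compared the groups (lmFit, eBayes; residual degrees of freedom 3, prior 2.93). Tested on simulated data for this comparison with 13091 genes, it recovered 58 of 100 genes changed by 1 and 97 of 100 changed by 2 on the log2 scale, with 13 false calls. All 42 members are named, those past the threshold with full statistics, and from the other lists up to 6 called genes with the largest difference, the muscle markers being examples. Members and lists were chosen with earlier results of these data known.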

Additional observations from a re-analysis of the deposited data

How the results depend on the processing

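The 17 calls among the 37 mitotic genes depended on how files and arrays entered the fit, while their direction seldom did. Of the 37 genes, 35 kept their sign in each of the 18 alternatives that tested them. Kif11, Kif23, Kif2c and Espl1 were tested in 17 of these. Leaving out 1 array gave 0 to 24 calls, 0 to 37 of the other mitosis genes (14 in the main analysis), 0 to 17 of the DNA replication genes (4) and 47 to 4340 of all genes (670). Espl1 then lay between -0.24 and 0.65, and Cdc25b between -0.62 and 0.02. With 10 separate files the calls were 32, 42, 19 and 4498, in the same order, and 1 of the 42 and 4 of the 19 were lower. With the replicate number as a block on the 10 files the calls were 27, 29, 8 and 1943, with 1 of the 8 lower. The replicate numbers do not pair the samples, however: deviations of same-numbered files correlated at 0.38, -0.04, -0.35 and -0.11. A fit with scan as block and position as random block called 27 mitotic genes, 9 replication genes (1 of them lower) and 1455 genes in all. The second scan alone gave 10, 8 and 2 calls on the lists, the first scan 1 replication gene and normexp 2. With every probe tested, dim ones included, 0 genes of the 3 lists and 17 in all were called by limma, though 27 of the mitotic genes had an unadjusted p under 0.05. Taking the percentile over all probes moved the median of all genes from -0.05 to 0.11, that of the mitotic genes from 0.77 to 0.93, and the share of lower calls from 46.1% to 32%. The value table gave 19 calls among the mitotic genes. The 5 untested genes were limited by signal over background.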
